A study of Homo sapiens with 12 samples.

Results

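Transcripts whose symbols follow the naming of collagens, laminins or integrins were followed across 3 gastric cancer cell lines and 4 treatments. The symbols were taken if they matched COL, digits, A, digits, if they began with LAMA, LAMB or LAMC and a digit, or if they began with ITGA or ITGB. The rule found 8 of the 14884 gene symbols with an annotated transcript cluster. These 8 do not form a set of collagens, laminins and integrins. There was 1 collagen chain gene, COL26A1, and 3 antisense transcripts of collagen genes, COL4A2-AS1, COL18A1-AS1 and COL18A1-AS2. The other 4 were named after integrins, namely the genes ITGB1BP1, ITGB1BP2 and ITGB3BP, which code for proteins described as binding integrin tails, and the antisense transcript ITGB2-AS1. The rule found 0 laminins and 0 integrin subunits, and those families were not analysed here. Only 30.0% of the 53617 transcript clusters had a gene symbol here, so this does not show that the arrays lack those families. The genes are therefore called below the COL- and ITGB-named transcripts, and nothing measured on them stands for the families themselves. Read strictly, with nothing allowed after the digits, the collagen part of the rule left COL26A1 alone.

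AGS, MKN1 and SNU601 are established gastric cancer cell lines, grown in RPMI medium with fetal calf serum. The 4 treatments were DMSO as solvent control, Rhosin, which is known as a small molecule that blocks activation of RhoA, and the code-named compounds JK136 and JK139. With 1 array for each of the 12 combinations, a line had 4 arrays and a treatment 3. The spread behind a treatment's p-value is what line and treatment leave over, which is how far treatment differences vary from line to line. Doses and exposure times are not stated in the labels, and no label says that the 4 arrays of a line came from separate cultures, so the spread may be technical in part.

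Integrins are receptors made of an alpha and a beta chain. They hold cells to matrix proteins such as collagens and laminins and link this contact to the actin cytoskeleton, where RhoA drives contraction and the growth of adhesions. The short tail of the beta chain inside the cell is where activators such as talin and the kindlins dock. ITGB1BP1, also called ICAP1, binds the tail of the integrin beta-1 chain and hinders that docking. ITGB1BP2, also called melusin, is a partner of the same chain known from heart and skeletal muscle. ITGB3BP was named for binding the beta-3 chain but is best known as the centromere protein CENP-R. COL26A1 codes for a secreted collagen first described in reproductive organs. COL4A2 codes for a chain of the basement membrane collagen type IV, COL18A1 for the chain of collagen XVIII, and ITGB2 for the beta chain of leukocyte integrins. In RefSeq's GRCh38.p14 annotation COL4A2-AS1 lies within COL4A2, both COL18A1 antisense transcripts lie within COL18A1, and ITGB2-AS1 overlaps an end of ITGB2. These 3 host genes were not analysed here, and whether their signal moved with that of the antisense clusters was not tested.

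Levels are log2 signals. Genes were tested where their mean over the 12 arrays was at least 4.61, the 40th percentile over symbols, and 8930 genes passed. Of the 8 transcripts, 4 passed, ITGB3BP with a mean of 6.18, ITGB1BP1 with 5.56, COL26A1 with 4.97 and ITGB2-AS1 with 4.72. Just under it lay COL18A1-AS1 with 4.58 and ITGB1BP2 with 4.47, followed by COL4A2-AS1 with 4.01 and COL18A1-AS2 with 3.58. For these 4 the values come from the same model fitted to all 14884 symbols. Since array medians lay between 4.14 and 4.20, most of these transcripts sat near the median signal of a cluster. That is in the lower part of a range from 0.29 to 13.05, and no detection call was used here. Each of the 8 symbols had 1 cluster.

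The lines were checked against cell type markers. All 5 annotated epithelial markers passed the filter, and between MKN1 and AGS 3 of them were higher and 2 lower in MKN1. The keratins KRT8, KRT18 and KRT19 were the higher ones, with KRT18 at 10.75 in MKN1 and 9.63 in AGS, and CLDN4 and EPCAM the lower ones. EPCAM, an epithelial surface protein with the widest difference of the 5, stood at 6.49 ± 0.25 in MKN1 against 10.04 ± 0.06 in AGS and 10.19 ± 0.13 in SNU601 (SD, n = 4 arrays). VIM, the intermediate filament vimentin, stood at 8.26 ± 0.15 in MKN1, 4.38 ± 0.08 in AGS and 4.16 ± 0.20 in SNU601. Of 3 annotated fibroblast markers, the proteoglycan gene LUM stood at 8.76 in MKN1 and 2.90 and 3.21 in the other lines, while DCN lay between 1.90 and 2.13 in every line. Of 4 annotated leukocyte markers, LYZ stood at 10.83, 3.74 and 11.84 and CD68 at 6.14, 8.65 and 8.33 in AGS, MKN1 and SNU601, while SPI1 and CD14 had means under the filter over the 12 arrays. SPI1 lay between 4.26 and 4.37, whereas CD14 stood at 3.33, 4.67 and 3.46 in AGS, MKN1 and SNU601. All 3 annotated endothelial genes stayed under the filter, with KDR between 3.07 and 3.30. PECAM1 stood at 3.50, 3.99 and 3.48 in the same order of lines. In the fit of all symbols, 2 of the 4 leukocyte markers were called higher and 1 lower in MKN1 than in AGS. Of the 3 endothelial genes, 1 was called higher and 0 lower. Some of these markers thus differed between the lines compared next, not always in the pattern of the transcripts. Their part in those comparisons was not tested. In such bulk samples a change in the share of cells and a change of RNA per cell cannot be told apart.

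**Figure D1:**
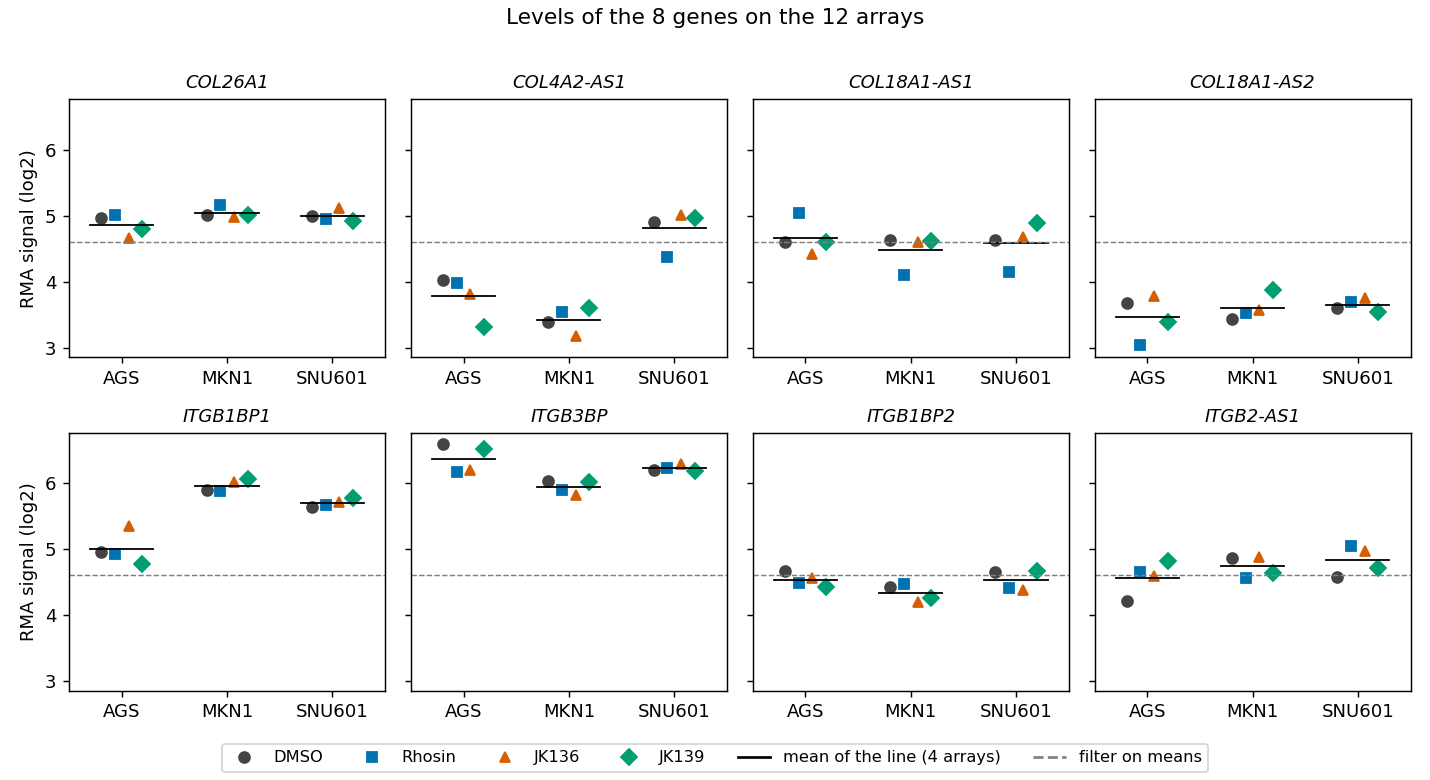
Log2 RMA signal (vertical axis) of the 8 transcripts on each of the 12 arrays, by line (horizontal axis) and treatment (marker). Black bars are means of a line's 4 arrays and the dashed line is the filter at 4.61. ITGB1BP1 is lowest in AGS, COL4A2-AS1 is highest in SNU601, the MKN1 arrays of ITGB3BP lie below those of the other lines, and in the other 5 panels no line difference was called.

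ITGB1BP1 differed between every pair of lines and was lowest in AGS. In AGS it stood at 4.96 with DMSO, 4.94 with Rhosin, 5.36 with JK136 and 4.78 with JK139. In MKN1 the 4 values were 5.91, 5.88, 6.02 and 6.07 in the same order, and in SNU601 they were 5.64, 5.67, 5.72 and 5.78. No array of one line reached the range of another, so the order MKN1, SNU601, AGS held within each treatment. Line means were 5.97 ± 0.09 in MKN1, 5.70 ± 0.06 in SNU601 and 5.01 ± 0.25 in AGS (SD, n = 4). MKN1 was 1.95-fold above AGS, a log2 difference of 0.96 ± 0.10 (SE; limma, adjusted p 4.32e-06). SNU601 was 1.62-fold above AGS, a log2 difference of 0.69 ± 0.10 (limma, adjusted p 0.000114).

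The remaining step of ITGB1BP1, from MKN1 down to SNU601, was small. The log2 difference was −0.27 ± 0.10, with a limma adjusted p of 0.0359, and it was between −0.30 and −0.21 in each of the 4 treatments. This call was not firm. The adjusted p was 0.0628 when all symbols were tested, 0.0735 without the MKN1 DMSO array, 0.0593 without MKN1 Rhosin, 0.132 without MKN1 JK139, 0.0795 without SNU601 DMSO, 0.0583 without SNU601 Rhosin and 0.135 without SNU601 JK136. Across all leave-outs the difference stayed negative, from −0.31 to −0.21.

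ITGB3BP, the centromere gene, was lower in MKN1 than in the other lines. Its values in AGS were 6.59 with DMSO, 6.17 with Rhosin, 6.21 with JK136 and 6.52 with JK139. In MKN1 they were 6.03, 5.91, 5.83 and 6.02 in the same order, and in SNU601 6.20, 6.24, 6.29 and 6.20. The highest MKN1 array lay under the lowest array of either other line. AGS and SNU601 overlapped, and AGS was the higher of the pair with DMSO and JK139 but not with Rhosin and JK136. Line means were 6.37 ± 0.21, 5.95 ± 0.10 and 6.23 ± 0.04 in AGS, MKN1 and SNU601 (SD, n = 4).

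MKN1 lay 1.34-fold below AGS in ITGB3BP, a log2 difference of −0.43 ± 0.09 (SE, limma adjusted p 0.00146). SNU601 lay above MKN1 by 0.29 ± 0.09 (limma, adjusted p 0.0176). The latter call was lost without the MKN1 JK136 array (adjusted p 0.0545), without SNU601 Rhosin (0.0660) and without SNU601 JK136 (0.0798). SNU601 and AGS differed by −0.14 ± 0.09 (limma, adjusted p 0.227), with a 95% confidence interval from −0.34 to 0.06. No difference between AGS and SNU601 was called, and the interval does not show that they are equal.

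COL4A2-AS1, the antisense transcript inside the collagen type IV gene, was the one member of the collagen group to differ between lines, and it was high in SNU601. There it stood at 4.91 with DMSO, 4.38 with Rhosin, 5.02 with JK136 and 4.96 with JK139. In AGS the values were 4.03, 3.99, 3.81 and 3.32 in the same order, and in MKN1 3.40, 3.54, 3.18 and 3.60. Every SNU601 array lay above every array of the other lines, whereas AGS and MKN1 overlapped. It passed 4.61 on 3 arrays, all of SNU601, so its levels in AGS and MKN1 all lay under the filter.

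In the fit of all symbols, SNU601 exceeded AGS in COL4A2-AS1 by 1.03 ± 0.18, which is 2.04-fold (SE; limma, adjusted p 0.00102). It exceeded MKN1 by 1.39 ± 0.18, which is 2.62-fold (limma, adjusted p 6.44e-05). The difference was present within each treatment, from 0.40 to 1.64 against AGS and from 0.84 to 1.84 against MKN1. Both differences were smallest with Rhosin. MKN1 and AGS differed by −0.36 ± 0.18 (limma, adjusted p 0.136). Without the AGS JK139 array, the lowest of AGS, that difference was −0.57 (adjusted p 0.0144).

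**Figure D2:**
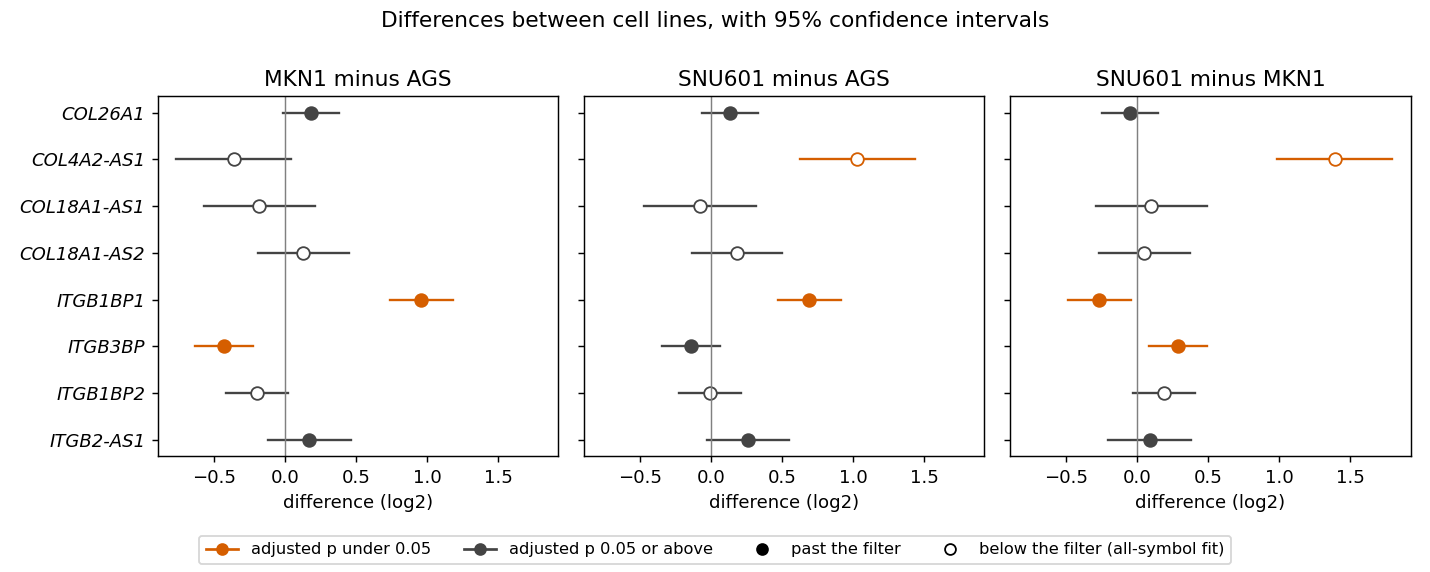
Log2 differences between lines (horizontal axis) with 95% confidence intervals for the 8 transcripts (vertical axis), 1 panel per comparison, each from a limma fit over 12 arrays. Filled points passed the filter, open points come from the fit of all symbols, and orange marks an adjusted p under 0.05. ITGB1BP1 is called in all 3 panels, and COL4A2-AS1 has the widest step, 1.39 between SNU601 and MKN1.

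The other 5 transcripts showed no called difference between lines. COL26A1, the sole collagen chain, lay between 4.67 and 5.17 on all 12 arrays, with a lowest, median and highest value of 4.67, 4.89 and 5.01 in AGS, of 4.99, 5.01 and 5.17 in MKN1 and of 4.92, 4.98 and 5.12 in SNU601. The MKN1 and AGS means of COL26A1 differed by 0.18 ± 0.09 (SE; limma, adjusted p 0.0889), with a 95% confidence interval from −0.01 to 0.38, and MKN1 was the higher in 4 of 4 treatments. SNU601 differed from AGS by 0.14 and from MKN1 by −0.05 in this gene.

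ITGB2-AS1 had means of 4.57 ± 0.26 in AGS, 4.75 ± 0.16 in MKN1 and 4.83 ± 0.22 in SNU601 (SD, n = 4), and the ranges of the lines overlapped. SNU601 and AGS differed in it by 0.26 ± 0.13 (limma, adjusted p 0.121), and by 0.38 (adjusted p 0.0346) without the AGS JK139 array. ITGB1BP2, the muscle-associated partner of the beta-1 chain, had means of 4.54 in AGS, 4.34 in MKN1 and 4.53 in SNU601. Its differences lay between −0.20 and 0.19, with adjusted p of 0.128 or above. COL18A1-AS1 had means between 4.49 and 4.67 and COL18A1-AS2 between 3.48 and 3.66. The latter stayed under 4.61 on every array.

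These counts are read against the background of all genes. Between MKN1 and AGS, 2 of the 4 members past the filter were called and 66.3% of the 8930 genes. Between SNU601 and AGS 1 of 4 was called against 52.7%, and between SNU601 and MKN1 2 of 4 against 63.4%. With all symbols tested, 2 of the 8 members were called in each comparison, against 47.8%, 33.1% and 45.8% of symbols. The arrays of MKN1 and AGS did not overlap in 2 of the 8 members (44.1% of symbols), those of SNU601 and AGS in 2 (32.9%) and those of SNU601 and MKN1 in 3 (46.3%). The members thus differed between lines no more often than the genes at large, and their median size of difference, 0.19, 0.16 and 0.14 in the 3 comparisons, lay under the 0.28, 0.19 and 0.26 of all symbols.

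Line held 90.0% of the sum of squares of ITGB1BP1, 85.9% of COL4A2-AS1 and 69.3% of ITGB3BP, where the median was 82.0% over genes past the filter and 63.9% over all symbols. ITGB3BP thus lay under the median of the genes it was tested with. It held 38.7% for ITGB1BP2, 37.7% for COL26A1, 25.1% for ITGB2-AS1 and 8.22% for COL18A1-AS1. For COL26A1, ITGB2-AS1 and both COL18A1 antisense transcripts the residual, which neither line nor treatment accounts for, held the largest share, from 43.8% to 75.9%. The residual SD was 0.33 for COL4A2-AS1 and 0.31 for COL18A1-AS1 against 0.12 for COL26A1.

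Other genes of cell-matrix contact were taken from lists of pathway partners and counted over all annotated members in the fit of all symbols. Between MKN1 and AGS, where 47.8% of symbols were called, 9 of 20 focal adhesion genes were higher and 7 lower in MKN1. TNS4, a tensin, stood at 10.43 in AGS and 7.80 in MKN1, and FERMT2, a kindlin, at 3.74 and 7.08. Of 14 genes that process collagen, 9 were higher and 0 lower in MKN1 than in AGS, and 0 were higher and 10 lower in SNU601 than in MKN1, where 45.8% of symbols were called. In the fit of genes past the filter, 8 of 10 were called higher in MKN1 than in AGS, where 66.3% of genes were called. There 1 was called lower, BMP1, at 6.42 in AGS and 6.12 in MKN1. P3H2, a collagen prolyl hydroxylase, stood at 3.25, 7.49 and 6.30 in AGS, MKN1 and SNU601, and the crosslinking enzyme LOXL2 at 4.92, 7.59 and 5.04. Of 15 other matrix genes, 7 were higher and 4 lower in MKN1 than in AGS, and the fibronectin gene FN1 stood at 3.42 in AGS and 9.59 in MKN1. Of 8 other receptors for collagen or laminin, 1 was higher and 3 lower, with CD44 at 6.45 in AGS and 10.17 in MKN1 and the laminin receptor BCAM at 9.25 and 6.83. In the fit of genes past the filter, 2 of 6 receptors were higher and 3 lower. Of 5 hemidesmosome partners, 3 were higher and 0 lower. The AGS levels of FERMT2, P3H2 and FN1 lay under the filter. The median differences between MKN1 and AGS were −0.005 for focal adhesion, 0.65 for collagen processing, 0.07 for matrix, −0.26 for receptors and 0.90 for hemidesmosome genes, beside −0.004 over all symbols.

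The comparisons with DMSO ask whether Rhosin, JK136 or JK139 moved these transcripts, and they share the 3 DMSO arrays. Limma called 0 of the 4 members past the filter and 0 of all 8 for each compound, and 0 had an unadjusted p under 0.05. The background was as low, with 0% of the 8930 genes called for each compound, 0.00672% of all symbols called for JK136 and 0% for the others, and 6.27%, 5.25% and 2.44% at an unadjusted p under 0.05 for Rhosin, JK136 and JK139. For the mean of the 3 compounds 0 members and 0% of the genes were called, with 3.37% at an unadjusted p under 0.05. The values that follow therefore describe these arrays and are not called as responses. Over the 8 members the median size of difference was 0.15 for Rhosin, 0.15 for JK136 and 0.08 for JK139. Over all symbols it was 0.10, 0.09 and 0.08. Within AGS the members had 0.31, 0.26 and 0.21 against 0.18, 0.17 and 0.14. Within MKN1 they had 0.13, 0.12 and 0.17 against 0.14, 0.15 and 0.15, and within SNU601 0.17, 0.12 and 0.07 against 0.15, 0.14 and 0.13. Whether these sizes differ was not tested.

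With Rhosin, ITGB1BP1 stood nearest to its DMSO level, with differences between −0.03 and 0.03 in the lines. The fitted log2 difference was −0.01 ± 0.12 (SE), with a 95% confidence interval from −0.26 to 0.25. COL26A1 had 0.05 ± 0.10 with an interval from −0.17 to 0.28. ITGB3BP had −0.17 ± 0.11, of which AGS gave −0.42, MKN1 −0.12 and SNU601 0.04. With Rhosin 0 of the 8 transcripts had 1 sign in all 3 lines, against 26.1% of all symbols. The widest disagreement was that of COL18A1-AS1, with 0.43 in AGS against −0.54 in MKN1 and −0.48 in SNU601.

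With JK136, 4 of the 8 transcripts had 1 sign in all 3 lines, against 26.3% of all symbols. The AGS, MKN1 and SNU601 values of ITGB1BP1 were 0.40, 0.11 and 0.08, with a fitted difference of 0.20 ± 0.12 and a 95% confidence interval from −0.06 to 0.45. Without the AGS JK136 array this difference was 0.06, and without all AGS arrays 0.10. Those of ITGB2-AS1 were 0.38, 0.01 and 0.40, with a fitted difference of 0.26 ± 0.15 and an interval from −0.07 to 0.60, and the difference was 0.13 without the AGS DMSO array and 0.46 without the MKN1 DMSO array. COL18A1-AS2 had values between 0.11 and 0.15, and ITGB1BP2 between −0.26 and −0.11. COL26A1 had −0.07 ± 0.10 and ITGB3BP −0.16 ± 0.11.

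With JK139, 2 of the 8 had 1 sign in all 3 lines, against 24.3% of symbols. These were COL26A1, with line values of −0.18, −0.001 and −0.08, and ITGB3BP, with −0.08, −0.01 and −0.005. The fitted differences were −0.08 ± 0.10 and −0.03 ± 0.11. That of COL26A1 was −0.03 without the AGS DMSO array and −0.04 without all AGS arrays. That of ITGB3BP turned positive without the AGS DMSO array (0.05) or the SNU601 JK139 array (0.03), and was −0.09 without AGS JK139, −0.11 without SNU601 DMSO and −0.009 without all AGS arrays. ITGB1BP1 had 0.05 ± 0.12 and ITGB2-AS1 had 0.17 ± 0.15.

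**Figure D3:**
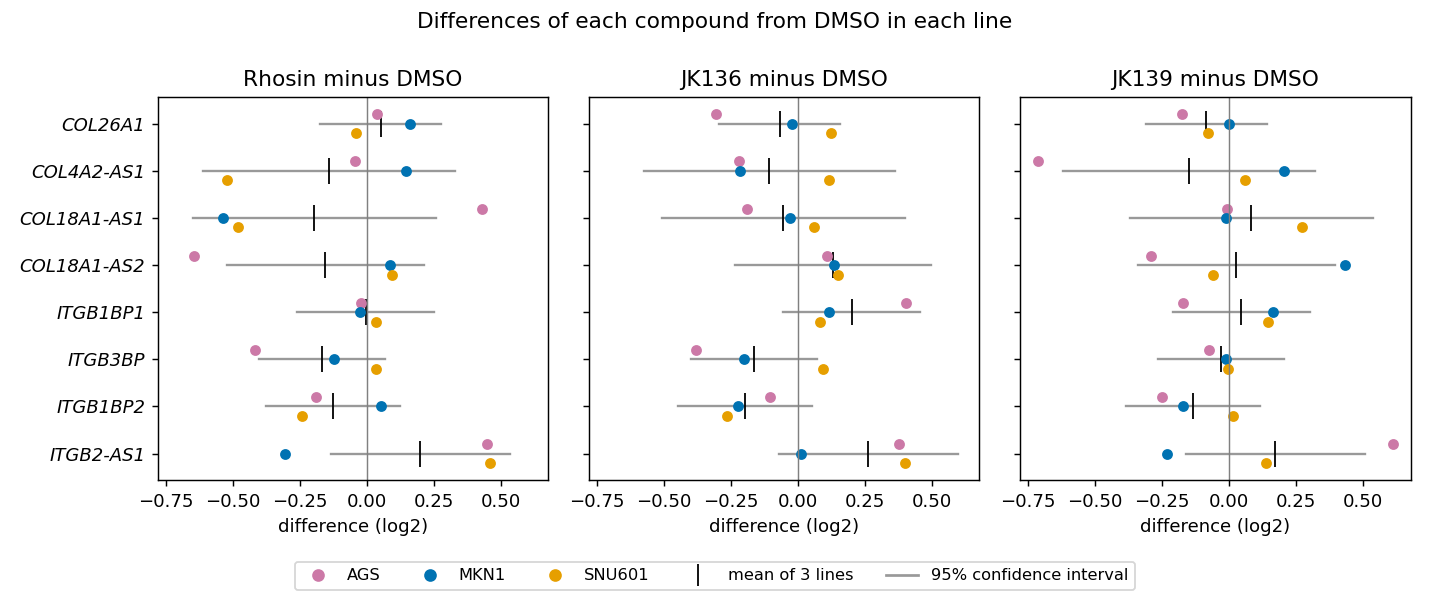
Log2 differences from DMSO (horizontal axis) for the 8 transcripts (vertical axis) with Rhosin, JK136 and JK139. Coloured points are single lines, black ticks the means of 3 lines and grey bars 95% confidence intervals from limma. Every bar crosses 0, and the points farthest out are those of AGS for COL4A2-AS1 with JK139, −0.71, and for COL18A1-AS2 with Rhosin, −0.64.

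Over the 8 transcripts, 3 compounds and 3 lines there were 72 differences from DMSO, of which 33 were above 0. A change of at least 1.5-fold either way occurred in 3 of them, all in AGS. They were COL4A2-AS1 with JK139 (−0.71), COL18A1-AS2 with Rhosin (−0.64) and ITGB2-AS1 with JK139 (0.61). In AGS, 5.70% of symbols passed 1.5-fold with Rhosin, 5.62% with JK136 and 3.08% with JK139, against 3.80%, 3.54% and 2.82% in MKN1 and 4.11%, 2.98% and 2.68% in SNU601. Each value rests on 1 array of each kind, COL4A2-AS1 and COL18A1-AS2 lay under 4.61 on the arrays concerned, and ITGB2-AS1 did so on the DMSO array (4.22). The ranges over the 9 differences were narrowest for ITGB1BP2, from −0.26 to 0.05, and widest for COL18A1-AS1, from −0.54 to 0.43, COL18A1-AS2, from −0.64 to 0.43, and COL4A2-AS1, from −0.71 to 0.21.

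The compounds were also set against each other in the same lines, in 3 pairs. Limma called 0 of 4 members past the filter in each pair, with 0 at an unadjusted p under 0.05, and 0% of the 8930 genes in each. Of the genes, 9.09% had an unadjusted p under 0.05 between JK136 and Rhosin, 7.42% between JK139 and Rhosin and 5.53% between JK139 and JK136. JK136 and Rhosin differed in ITGB1BP1 by 0.20 ± 0.12, with line values of 0.42, 0.14 and 0.05 (AGS, MKN1, SNU601) and a 95% confidence interval from −0.05 to 0.46. Without the AGS JK136 array this difference was 0.06, and without all AGS arrays 0.10. JK139 and Rhosin differed in COL26A1 by −0.14 ± 0.10, with −0.21, −0.16 and −0.04 in the same lines and an interval from −0.36 to 0.09, and by −0.09 without the AGS Rhosin array and −0.22 without the SNU601 Rhosin array. JK139 and JK136 differed in ITGB1BP1 by −0.15 ± 0.12, with line values of −0.57, 0.05 and 0.06 and an interval from −0.41 to 0.10. In ITGB3BP they differed by 0.13 ± 0.11, with an interval from −0.10 to 0.37. These intervals do not show that the compounds act alike on these genes, and the labels do not say whether the doses and times were matched.

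A test of whether the lines differed in their shift from DMSO, taken over any compound, called 0 members and 0% of the 8930 genes (limma's F test). It pooled the 3 compound arrays of a line and set them against that line's 1 DMSO array. Its error was the spread between compounds within a line, not that between lines. An unadjusted p under 0.05 was reached by 2.73% of genes and by 1 of the 4 members past the filter, ITGB2-AS1 (unadjusted p 0.0495, adjusted p 0.9999), which had an unadjusted p of 0.0642 in the fit of all symbols. ITGB2-AS1 stood at 4.22 with DMSO in AGS and at 4.66, 4.59 and 4.83 with Rhosin, JK136 and JK139. In SNU601 it stood at 4.59 with DMSO and at 5.05, 4.98 and 4.72 with the compounds. In MKN1 it stood at 4.88 with DMSO and at 4.57, 4.89 and 4.65. The 3 compound arrays thus lay above the DMSO array in AGS and SNU601 but not in MKN1. ITGB1BP1 had an unadjusted p of 0.998 in this test.

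The pathway partners gave no called response either. Across the lists of focal adhesion, collagen processing, hemidesmosome, matrix and receptor genes, limma called 0 of the genes past the filter in the comparisons of treatments, with a smallest adjusted p of 0.419.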

How the data were processed

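Total RNA of 12 samples, 1 per line and treatment, was hybridised to Affymetrix Gene 2.0 ST arrays. The deposited values are log2 signals per transcript cluster that the authors made with RMA in Affymetrix Expression Console, per the submitters' processing notes, with versions not given in the sources used here. RMA corrects background and gives all arrays 1 distribution, so a shift of all genes would not be seen. Precision is limited by how few arrays there are. Of 53617 clusters, 16098 (30.0%) had a gene symbol here, and a symbol with several clusters took the one of highest mean.

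Comparisons used limma 3.58.1 under R 4.3.3, with line and treatment as fixed terms over all 12 arrays and 6 residual degrees of freedom. Benjamini-Hochberg adjustment covered all genes of a fit, and an adjusted p under 0.05 was called. The rule named members called between lines and, between treatments, those with 1 sign in all 3 lines. The other members are given because they are few. List genes were named among the 3 largest called differences between MKN1 and AGS. Between lines, lists were counted without the filter unless stated, since it keeps genes high in a single line. The alternatives were other filters, normalizations, priors, array weights, terms, and leave-outs. Members and lists were chosen with earlier results of these data known.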

Additional observations from a re-analysis of the deposited data

Results flagged for a closer look

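Within each line, the array farthest from the others was compared with the spread of the line's 4 arrays for the 8 transcripts, which makes 24 checks, of which chance marks about 1 in 20. COL18A1-AS1 in MKN1 stood at 4.10 on the Rhosin array, while the other 3 arrays lay between 4.61 and 4.64. COL26A1 in MKN1 stood at 5.17 on the same array, while the other 3 lay between 4.99 and 5.01. For COL18A1-AS1 the Rhosin array was also the lowest in SNU601, at 4.15, but the highest in AGS, at 5.04. The 4 arrays of a line had different treatments, so the rate of 1 in 20 is only a rough guide.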

How the results depend on the processing

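The processing alternatives were quantile normalization, median centring, a trended prior, array weights, and leaving out the treatment term (lines) or line term (treatments). Of the values of the genes named by rule, 65 of 65 then kept their direction and their side of the threshold. This balanced design fixes each difference under a trended prior or a dropped term, so only the adjusted p could move there. The deposited values were already normalized by RMA, with array medians between 4.14 and 4.20. Quantile normalization and median centring therefore had little left to move. The values between treatments were uncalled from the start, with limma adjusted p of 0.617 or above. When an array or a line was left out, 170 of 181 values kept both. The 2 that reversed were both the difference of ITGB3BP between JK139 and DMSO (0.054 and 0.03), whose leave-outs ran from −0.11 to 0.054. With no filter, 2 members were called between SNU601 and AGS, since COL4A2-AS1 was then tested, and ITGB1BP1 was not called between SNU601 and MKN1. With the filter at the 60th percentile 1, 0 and 1 members were called between MKN1 and AGS, SNU601 and AGS, and SNU601 and MKN1, since ITGB3BP was then the sole member tested. Without single arrays or lines, the members called past the filter stayed at 2 between MKN1 and AGS, ran from 1 to 2 between SNU601 and AGS and from 0 to 2 between SNU601 and MKN1, and for all 8 members from 1 to 3 in the last. The comparisons of treatments and the interaction gave 0 members under every alternative run. These include the fit with no line term (no replicate block), where the spread between lines enters the error. That fit could hardly call a treatment, so its 0 adds no support. No other pairing was possible because each line has 1 array per treatment. Low signal limits what can be measured of the 4 members below the filter.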
